A study of Mus musculus with 24 samples.

Results

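The tripartite motif (TRIM) genes encode a large family of mostly RING-type ubiquitin ligases. The family was taken as all protein-coding genes of the count table whose symbol is Trim followed by a number, with or without one of the letters a to d, which gave 68 of 56748 genes (21970 of them protein-coding). RNA sequencing had been done on 24 cultures of mouse liver endothelial cells, 3 for each of 8 groups. Cells were isolated with Cd31 or Cd146 magnetic beads from livers of 3-month-old female C57BL/6 mice, as the methods state, cultured, transduced with lentivirus and collected 1 week later. In both the Cd31+ and the Cd146+ cells, a P16 shRNA was compared with an nc shRNA (non-coding, both in pLKO.1), and P16 fused to GFP with the empty vector of the same backbone (pLenti-C-mGFP-P2A-Puro). All cells therefore carried a lentiviral construct, and no untransduced cells were among the groups. Replicates carry numbers from 1 to 6 in the labels. Whether cultures came from separate animals is not stated, so that p-values measure the spread between these cultures.

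Most TRIM proteins have an N-terminal RING domain, 1 or 2 B-boxes and a coiled coil, and they differ in the C-terminal part that binds the target. Where present, the RING passes ubiquitin from an E2 enzyme to that target. Many members are known as parts of the antiviral defence: some bind viral capsids or antibody-coated virus in the cytosol, others attach ubiquitin to RNA and DNA sensors or to their adaptors, and a subset is itself transcribed in response to interferon. Other members act in the nucleus as chromatin cofactors, in the turnover of p53 and cell cycle proteins, in muscle or along microtubules.

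The 24 libraries held between 15409767 and 26470392 counts. With counts scaled to the same total in every library, a floor of 3 counts corresponded to 0.113 to 0.195 CPM. All other CPM values were also divided by a normalization factor of the library (TMM, 0.934 to 1.07). TRIM genes took 0.157 to 0.206% of the counts of a library. The targeted gene Cdkn2a, whose locus also encodes p19Arf, stood at 36.2 to 76.0 CPM with nc shRNA and 5.13 to 9.22 CPM with P16 shRNA in Cd31+ cells, and at 94.6 to 196 CPM against 7.80 to 25.7 CPM in Cd146+ cells. With the P16 construct it stood at 137 to 330 CPM in Cd31+ cells and at 228 to 834 CPM in Cd146+ cells, above every empty vector library (32.5 to 104 CPM). Summed levels of 11 mesenchymal markers (6658 to 51168 CPM) exceeded those of 12 endothelial markers (397 to 2591 CPM) in all libraries, and hepatocyte and lymphoid marker sums did not exceed 0.917 and 0.604 CPM. The mesenchymal markers were uneven. Medians were 10952 CPM for Col1a1, 6752 for Col1a2, 4045 for Col3a1 and 2966 for Acta2. Dcn (394), Pdgfrb (313) and Pdgfra (70.6) followed. Tagln (12.8), Lum (9.59), Des (2.18) and Lrat (0) lay below Pecam1 (145). Which cells gave these transcripts was not tested. Of the 7 sinusoidal markers, Stab1 stood at 3.63 to 431 CPM (median 27.2 CPM) and Mrc1 reached 21.4 CPM. Clec4g did not exceed 0.225 CPM, Stab2 0.963 CPM, Oit3 2.72 CPM, Fcgr2b 6.80 CPM and Lyve1 7.53 CPM. The methods name female mice, but 16 libraries held Ddx3y at 52.1 to 171 CPM and Xist at no more than 0.225 CPM, while the other 8, all numbered 4, 5 or 6, held Xist at 327 to 761 CPM. The Cd31+ shRNA libraries were all of the first kind, whereas the Cd146+ shRNA groups mixed both, with Xist in 1 of 3 nc shRNA and in 2 of 3 P16 shRNA libraries.

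Most of the family was either moderately expressed or nearly silent. Of the 68 members, 37 passed the low-count filter in all 4 construct comparisons, 5 in some of them and 26 in none. No member had 0 counts in all libraries, and the 26 filtered members had 2 to 153 counts in total, with at most 42 in a library. They include the muscle genes Trim54, Trim55, Trim63 and Trim72, the stem cell gene Trim71 and Trim30b and Trim30c of the interferon-inducible list. Per kilobase of gene length, the highest mean levels over the 24 libraries belonged to Trim35 (61.6 CPM per kb), Trim28 (52.0), Trim47 (44.9), Trim8 (27.2) and Trim44 (23.8). Trim28, the KAP1 corepressor that works with KRAB zinc finger proteins, ranged from 152 to 285 CPM, and Trim35 from 213 to 349 CPM. Trim47 spread more widely, between 69.3 and 219 CPM, with the 2 highest values in Cd146+ replicates numbered 1 (212 CPM with nc shRNA, 219 CPM with P16). With nc shRNA in Cd31+ cells Trim35 stood at 68.8 ± 5.12 CPM per kb, Trim28 at 57.8 ± 8.80, Trim47 at 44.0 ± 11.6, Trim44 at 31.3 ± 9.25 and Trim8 at 27.5 ± 2.66 (mean ± SD, n = 3). There Trim35 and Trim28, Trim28 and Trim47, Trim47 and Trim44, and Trim44 and Trim8 differed by less than the sum of their SDs. In Cd146+ cells with nc shRNA Trim35 (57.7 ± 5.17) and Trim28 (43.9 ± 4.77) differed by more than that sum.

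**Figure D1:**
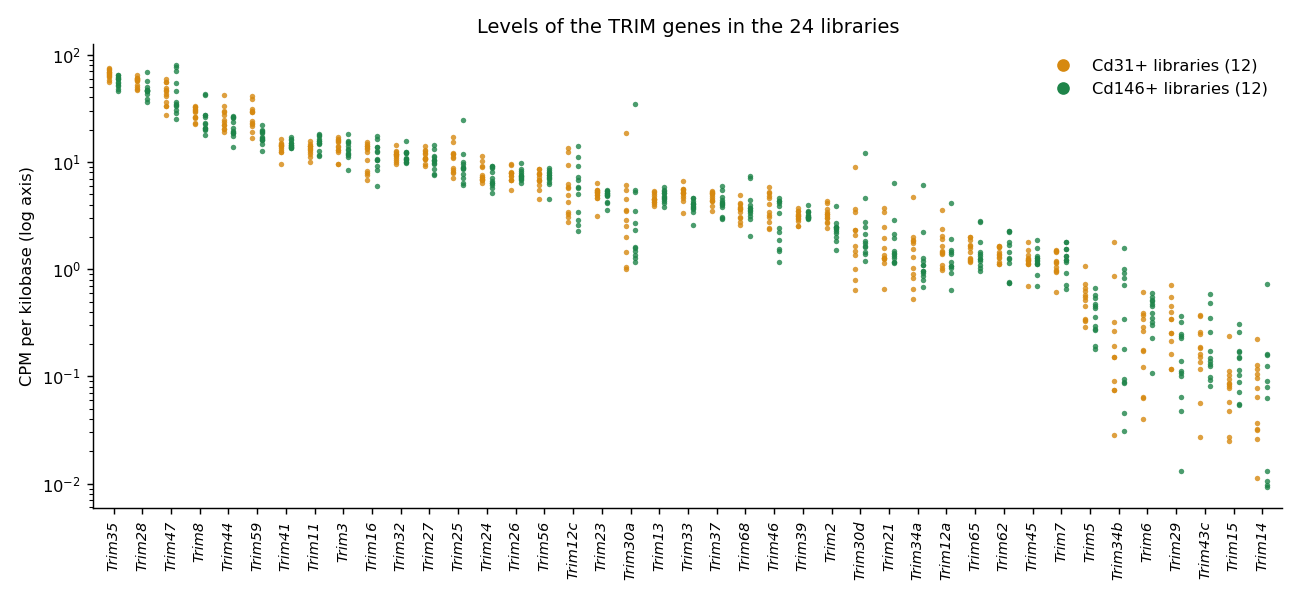
CPM per kilobase of gene length (log axis) of the TRIM genes with a mean above 0.1, ordered by their mean over 24 libraries; each point is 1 library, orange for Cd31+ and green for Cd146+, and values of 0 are not drawn. The 5 genes at the left have means of 23.8 to 61.6 CPM per kb, while Trim30a, Trim30d, Trim34a and Trim12c spread over a wider range than their neighbours.

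Members were grouped by role in lists written with earlier results of these data known. The list of interferon-inducible members held 15 genes (Trim5, Trim6, Trim12a, Trim12c, Trim14, Trim21, Trim25, Trim26, Trim30a to Trim30d, Trim34a, Trim34b and Trim56), of which 11 lie on chromosome 7, against 5 of the other 53 members. Several of them are close copies. Trim34a shared 59.7% of its 50-base words with other genes and Trim34b 56.8%, mostly with each other, Trim5 shared 36.6% and Trim12c 33.7%, so that reads could be split among them. Trim12a (10.5%), Trim30d (7.49%) and Trim30a (5.98%) shared less, and Trim25 (0.295%) and Trim21 (0.216%) almost nothing. Trim14 shared 33.9% with other genes, mainly Nans, which overlaps it on the other strand.

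Interferon-responsive promoters commonly carry the IRF element, and its core GAAANNGAAA was searched on both strands (TTTCNNTTTC) in RefSeq promoters, 250 bases before to 50 after each start (GRCm38.p6). A promoter was found for 53 of the 68 members. The core occurred in 9 of these 53 members (17.0%), and in 1079 of 27025 genes (3.99%). It was present in 8 of 14 interferon-inducible members (57.1%), and in 1 of 39 others (2.56%), Trim2. Trim14 had no promoter in that table, and no promoter of Trim6, Trim25, Trim30b, Trim30c, Trim34b or Trim56 held these letters in this window. The 150-base windows below are shown because they include the genes with the largest changes with P16 shRNA, and Trim26 as a gene with the core whose groups overlapped in both shRNA comparisons. They are written 5′ to 3′ along the transcript, with the core in capitals.
Trim30a, start 1 (chr7:104446076-104446225, minus strand): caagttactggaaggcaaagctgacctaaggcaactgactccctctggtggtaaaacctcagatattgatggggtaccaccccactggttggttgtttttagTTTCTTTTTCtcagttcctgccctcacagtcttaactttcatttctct
Trim30a, start 2 (chr7:104465144-104465293, minus strand): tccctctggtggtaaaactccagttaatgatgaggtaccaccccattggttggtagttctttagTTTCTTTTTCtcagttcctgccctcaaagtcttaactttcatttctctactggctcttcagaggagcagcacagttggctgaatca
Trim30d (chr7:104507800-104507949, minus strand): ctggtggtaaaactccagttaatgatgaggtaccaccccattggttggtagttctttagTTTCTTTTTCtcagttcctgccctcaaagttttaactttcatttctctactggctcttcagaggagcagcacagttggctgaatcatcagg
Trim34a (chr7:104244357-104244506, plus strand): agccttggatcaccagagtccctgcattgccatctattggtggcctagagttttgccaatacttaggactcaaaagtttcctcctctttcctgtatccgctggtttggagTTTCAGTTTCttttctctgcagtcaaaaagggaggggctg
Trim12a (chr7:104315446-104315595, minus strand): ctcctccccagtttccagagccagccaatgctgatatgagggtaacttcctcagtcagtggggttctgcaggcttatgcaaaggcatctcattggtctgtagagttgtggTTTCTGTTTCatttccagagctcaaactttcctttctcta
Trim12c (chr7:104353300-104353449, minus strand): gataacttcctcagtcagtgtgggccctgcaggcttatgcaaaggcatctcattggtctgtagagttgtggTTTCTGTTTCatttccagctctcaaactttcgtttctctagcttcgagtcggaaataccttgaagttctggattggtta
Trim5 (chr7:104288057-104288206, minus strand): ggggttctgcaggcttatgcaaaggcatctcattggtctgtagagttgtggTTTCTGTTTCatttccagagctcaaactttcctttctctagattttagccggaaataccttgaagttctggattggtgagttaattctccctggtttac
Trim21 (chr7:102565433-102565582, minus strand): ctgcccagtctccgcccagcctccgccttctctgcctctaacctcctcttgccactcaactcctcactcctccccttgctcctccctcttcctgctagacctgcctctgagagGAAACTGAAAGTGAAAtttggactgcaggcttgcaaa
Trim26 (chr17:36836956-36837105, plus strand): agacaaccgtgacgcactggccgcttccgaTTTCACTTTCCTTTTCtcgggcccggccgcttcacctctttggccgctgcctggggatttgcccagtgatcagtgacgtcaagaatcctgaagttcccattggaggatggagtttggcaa
The windows were not independent of each other. Trim12a and Trim5 had an identical run of 91 bases, each had one of 63 bases with Trim12c, and Trim30a at its second start and Trim30d had one of 89 bases, all containing the core. In Trim21 and in Trim26 a pair of cores overlapped.

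Silencing in Cd31+ cells left 8 TRIM genes above and 3 below the nc shRNA level, of 37 tested, at an unadjusted p under 0.05 (edgeR quasi-likelihood test). Over all genes these shares were 9.51% higher and 10.3% lower. Of the 8 higher genes 7 were on the interferon-inducible list, which had 11 tested members, all with a positive difference and a median log2 fold change of 1.02, against 0.0034 over all genes tested. After Benjamini-Hochberg adjustment only Trim16, which was lower, passed 0.05 (adjusted p = 0.0218), against 1.30% of all genes in both directions. Libraries with the same replicate number deviated together, and with the replicate number as a block 9 members rose and 5 fell at an adjusted p under 0.05, of 41 tested (all genes, 7.95% and 8.81%). Of the 9, 8 were on the interferon-inducible list.

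Trim30a and Trim30d, members of a rodent-expanded group of which Trim30a is known as a brake on Toll-like receptor signalling, showed the largest differences. Trim30a stood at 4.35, 5.96 and 11.9 CPM with nc shRNA and at 24.8, 18.5 and 76.6 CPM with P16 shRNA (replicates 1, 2 and 3). The groups did not overlap, and the replicate numbered 3 was the highest of both. The log2 fold change was 2.44 ± 0.669 (SE, unadjusted p = 0.0105, adjusted p = 0.133), and 2.37 ± 0.477 with the block (adjusted p = 0.0164). Trim30d stood at 2.38, 3.82 and 7.87 CPM with nc shRNA, and at 13.7, 8.73 and 34 CPM with P16 shRNA, again without overlap. Its log2 fold change was 2.01 ± 0.655 (adjusted p = 0.175), and 1.97 ± 0.316 with the block (adjusted p = 0.00225).

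Trim34a, Trim12a, Trim12c and Trim5 lie close to Trim30a and belong to the group of Trim5, whose primate counterpart binds incoming retroviral capsids. Trim34a rose from 1.36, 2.14 and 2.36 CPM to 4.83, 4.73 and 12.2 CPM (blocked log2 fold change 1.87 ± 0.367, adjusted p = 0.00578). Trim12c rose from 10.3, 11.4 and 15.9 CPM to 23.4, 22.0 and 46.3 CPM (1.26 ± 0.293, adjusted p = 0.0187). In both genes the lowest P16 shRNA library exceeded the highest control. Trim12a (1.03 ± 0.287, adjusted p = 0.0323) and Trim5 (1.03 ± 0.310, adjusted p = 0.0401) rose less in the blocked fit. Without the block the adjusted p-values of these 4 genes were 0.0945 to 0.202. Trim5 was the least abundant of them, at 1.07 to 2.14 CPM with nc shRNA and 2.31 to 3.95 CPM with P16 shRNA.

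Trim25, which ubiquitinates the RNA sensor RIG-I, stood at 46.1, 48.7 and 62.4 CPM with nc shRNA and at 67.7, 69.8 and 99.1 CPM with P16 shRNA. The difference was smaller than in the Trim30 genes but of similar size in each pair, with P16 shRNA to nc shRNA ratios of 1.47, 1.43 and 1.59. Its blocked log2 fold change was 0.58 ± 0.162 (adjusted p = 0.0298), against an unblocked adjusted p of 0.158. Trim21, the cytosolic antibody receptor, overlapped between the groups: 2.45, 4.75 and 5.06 CPM with nc shRNA and 4.77, 5.91 and 13.9 CPM with P16 shRNA. It passed with the block alone (0.95 ± 0.297, adjusted p = 0.0481; unblocked 0.304). Trim56, which acts on STING, had no overlap but a blocked adjusted p of 0.182 (0.32 ± 0.155), and Trim26 (0.14 ± 0.131, 0.515) and Trim6 (0.28 ± 0.400, 0.687) did not pass. Trim27, a cofactor outside the list, rose by a log2 fold change of 0.33 ± 0.0902 (adjusted p = 0.0263 with the block, 0.144 without).

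In all, 9 members had every P16 shRNA library above every nc shRNA library, 8 of them interferon-inducible, and 2 had every one below, of 37 (all genes, 13.8% and 13.6%). Leaving out 1 library in turn from the blocked fit left 2 to 11 members at an adjusted p under 0.05, against 14 with all libraries. Trim30d (log2 fold change 1.65 to 2.37) and Trim16 (-0.90 to -0.73) passed each of the 6 times and Trim34a 5 times, not without P16 shRNA replicate 3. Without that library 1 member passed in each direction, Trim30d and Trim16, and the median of the interferon-inducible list in the fit without a block was 0.70. The share of all genes passing in these fits was 7.29 to 12.6%, against 16.8% with all libraries. When nc shRNA replicate 1 was left out 5 members passed, and 4 when the nc shRNA library numbered 2 or 3, or P16 shRNA replicate 1, was left out. Summed endothelial markers were 691 to 1347 CPM with nc shRNA and 397 to 809 CPM with P16 shRNA in these cells, and cholangiocyte markers had medians of 103 and 232 CPM. Of the 5 cholangiocyte markers Spp1 had the highest median over all libraries (122 CPM), and Epcam did not exceed 0.246 CPM. The part of these markers in the differences was not tested.

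**Figure D2:**
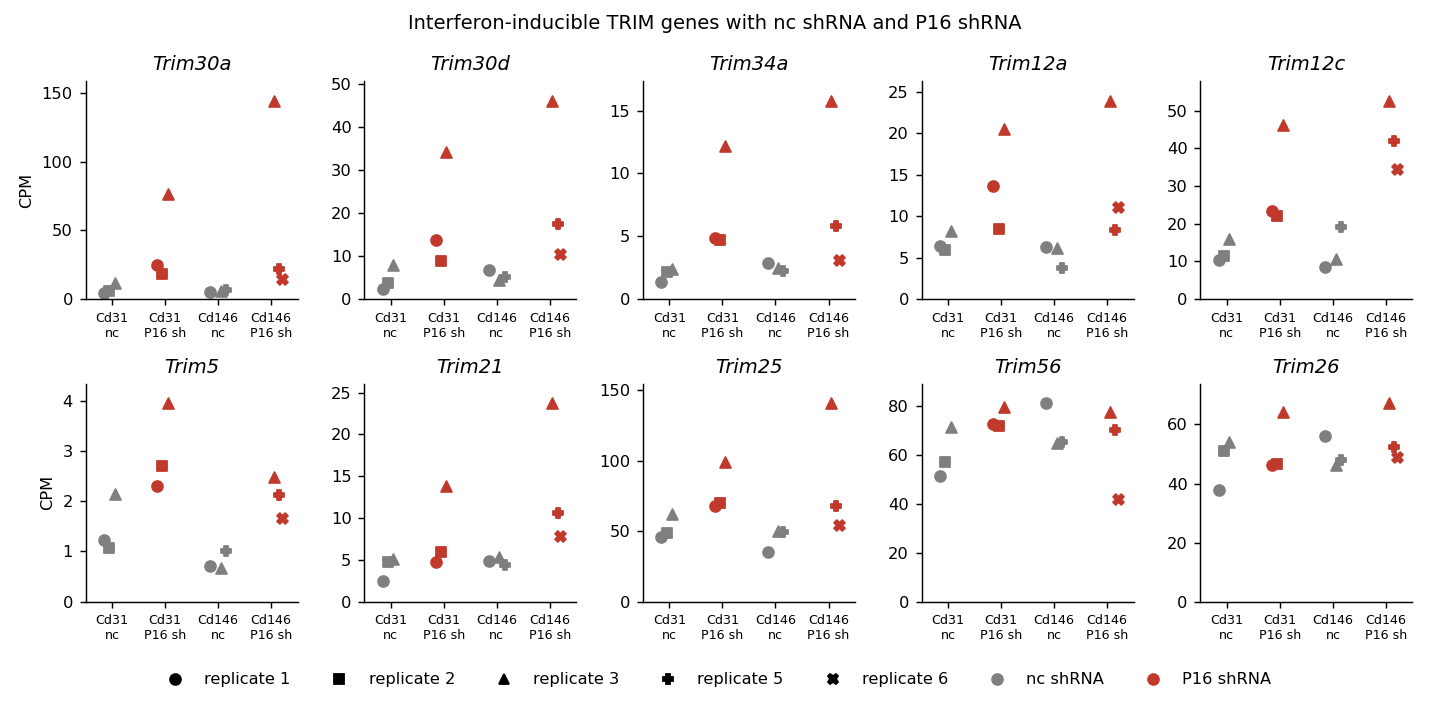
CPM of 10 interferon-inducible TRIM genes in the 12 shRNA libraries; grey symbols are nc shRNA, red symbols P16 shRNA, and the shape gives the replicate number. The P16 shRNA library numbered 3 is the highest of its group in both populations for all 10 genes, as in Trim30a at 76.6 and 144 CPM.

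Members that fell with P16 shRNA in Cd31+ cells came from other branches of the family. Trim16, which has roles in autophagy and in differentiation of keratinocytes, stood at 61.5, 56.5 and 60.3 CPM with nc shRNA and at 34.4, 35.7 and 31.3 CPM with P16 shRNA. The groups were well apart and narrow, with a log2 fold change of -0.81 ± 0.0976 (unadjusted p = 6.87e-05, adjusted p = 0.0218; blocked adjusted p = 0.00126). The unblocked adjusted call was lost whichever library was left out, although the unadjusted p did not exceed 0.000536. Trim59 (-0.52 ± 0.123, adjusted p = 0.0148), the NHL-domain member Trim3 (-0.45 ± 0.0942, 0.00769), Trim7 (-0.62 ± 0.166, 0.0246) and Trim47 (-0.31 ± 0.0871, 0.0289) fell with the block only. Their unblocked adjusted p-values were 0.219 to 0.551. Trim68, a member of the signalling list, was lower without overlap (12.7, 12.8 and 14.1 CPM against 10.8, 8.95 and 10.5 CPM), with a blocked adjusted p of 0.134.

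In Cd146+ cells, 9 TRIM genes were higher and 3 lower with P16 shRNA at an unadjusted p under 0.05, of 41 tested, while 5.44% of all genes were higher and 6.18% lower. Of the 9 higher genes 8 were interferon-inducible, a list with 13 tested members, 12 of which had a positive difference. Its median log2 fold change was 1.53, against 0.025 over all genes. No member passed an adjusted p of 0.05 in the edgeR fit without a block, nor did any gene (0%), and DESeq2 called 4 members, all higher, and 2.20% of all genes. With the block 6 members rose and 3 fell at an adjusted p under 0.05, of 42 tested (all genes, 3.53% and 4.80%). All 6 were interferon-inducible. These calls rest on the block over the 12 Cd146+ libraries: with a block over the 6 shRNA libraries alone no member and no gene (0%) passed after adjustment with edgeR, and 12 of 41 members had an unadjusted p under 0.05 (16.5% of all genes). The number 6 occurs in 1 Cd146+ library only, so that the P16 shRNA library numbered 6 adds nothing to the blocked difference.

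Trim30a stood at 5.19, 5.64 and 6.57 CPM with nc shRNA (replicates 1, 3 and 5) and at 144, 21.5 and 14.5 CPM with P16 shRNA (replicates 3, 5 and 6). The groups did not overlap, but 1 library was far above the other two. The log2 fold change of 3.37 ± 0.921 had an unadjusted p of 0.0094 and did not pass after adjustment (0.382, and 0.103 with the block). Without P16 shRNA replicate 3 it was 1.63 in the fit without a block. Trim30d stood at 6.66, 4.47 and 5.18 CPM with nc shRNA and at 46.0, 17.3 and 10.5 CPM with P16 shRNA, and rose with the block (2.58 ± 0.390, adjusted p = 0.0157; 0.382 without).

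Trim12c had the smallest p of the family without a block (0.00152). It stood at 8.51, 10.7 and 19.0 CPM with nc shRNA and at 52.6, 41.9 and 34.4 CPM with P16 shRNA, so that here the 3 silenced cultures lay close together. Its blocked log2 fold change was 1.72 ± 0.314 (adjusted p = 0.0285). Trim21 rose from 4.91, 5.30 and 4.33 CPM to 23.7, 10.6 and 7.87 CPM (1.72 ± 0.246, adjusted p = 0.00695), and here its groups did not overlap. Trim34a stood at 2.84, 2.50 and 2.24 CPM against 15.8, 5.78 and 3.08 CPM (2.11 ± 0.322, adjusted p = 0.00831). Trim12a (1.63 ± 0.276, 0.0135) and Trim5 (1.46 ± 0.343, 0.0355) also rose with the block, and all of these had unblocked adjusted p-values of 0.382 to 0.408.

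Trim25 stood at 35.4, 50.5 and 49.5 CPM with nc shRNA and at 141, 67.8 and 54.6 CPM with P16 shRNA. The groups did not overlap, but the blocked adjusted p was 0.0905 (1.04 ± 0.296). Trim14, an adaptor at mitochondria, was at 0.0417 to 0.694 CPM with nc shRNA and at 3.18, 0.709 and 0.391 CPM with P16 shRNA, which overlapped, with 1 library far above the rest (2.09 ± 1.12, adjusted p = 0.485). Trim34b (2.09 ± 1.07, adjusted p = 0.475), Trim26 (0.17 ± 0.184, adjusted p = 0.724), Trim6 (0.17 ± 0.468, adjusted p = 0.899) and Trim56 (-0.15 ± 0.257, adjusted p = 0.824) did not pass without a block either. Trim34b stood at 0.164, 0.0835 and 0.641 CPM with nc shRNA and at 0.174, 1.88 and 1.71 CPM with P16 shRNA. In both groups its values were higher in the libraries with Xist reads. With the block Trim56 turned to 0.16 ± 0.116, and it was higher with P16 shRNA in both same-numbered pairs (ratios of 1.20 and 1.07). Trim27 was higher, at 41.3, 53.2 and 57.4 CPM against 73.3, 61.0 and 78.8 CPM, with an unadjusted p of 0.0415 and a blocked adjusted p of 0.139.

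Trim7, which targets viral proteins and whose first known partner is glycogenin, fell from 13.6, 11.7 and 9.35 CPM to 4.92, 5.39 and 7.04 CPM (blocked log2 fold change -1.06 ± 0.177, adjusted p = 0.0113). Trim11, a ligase linked to protein quality control, fell from 59.2, 66.0 and 54.3 CPM to 41.7, 40.8 and 45.0 CPM (-0.56 ± 0.101, adjusted p = 0.0148). Both genes had every silenced culture below every control. Trim16 overlapped between the groups (56.7, 42.2 and 63.2 CPM against 27.0, 47.2 and 48.8 CPM) but was lower in both same-numbered pairs, and fell with the block (-0.57 ± 0.105, adjusted p = 0.0157; unblocked 0.578). Trim24, of the TIF1 group, was lower without overlap (78.1, 77.6 and 57.0 CPM against 48.7, 51.5 and 43.8 CPM), with an unadjusted p of 0.0202 and a blocked adjusted p of 0.105.

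Of the 41 members, 9 had every P16 shRNA library above every nc shRNA library and 7 had every one below, 16 in all (20.5% of all genes in both directions). The blocked count of 9 fell to 0 without nc shRNA replicate 3 and to 3 without nc shRNA replicate 1, and rose to 18 without P16 shRNA replicate 5. It was 9 without P16 shRNA replicate 3, of which 6 were higher. In these last 2 fits the silenced arm rested on 1 library, which was assumed to vary like the other groups. The share of all genes passing moved as well, from 8.33% to 0.687% without nc shRNA replicate 3 and to 24.4% without P16 shRNA replicate 5. Without P16 shRNA replicate 3 the median of the interferon-inducible list in the fit without a block was 0.85. A term for libraries with Xist reads left 12 members with an unadjusted p under 0.05 (11.7% of all genes). Summed cholangiocyte markers were 38.4 to 218 CPM with nc shRNA and 166 to 296 CPM with P16 shRNA in these cells, and macrophage markers reached 277 and 213 CPM. Here too Epcam did not exceed 0.246 CPM. The part of these markers in the differences was not tested.

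**Figure D3:**
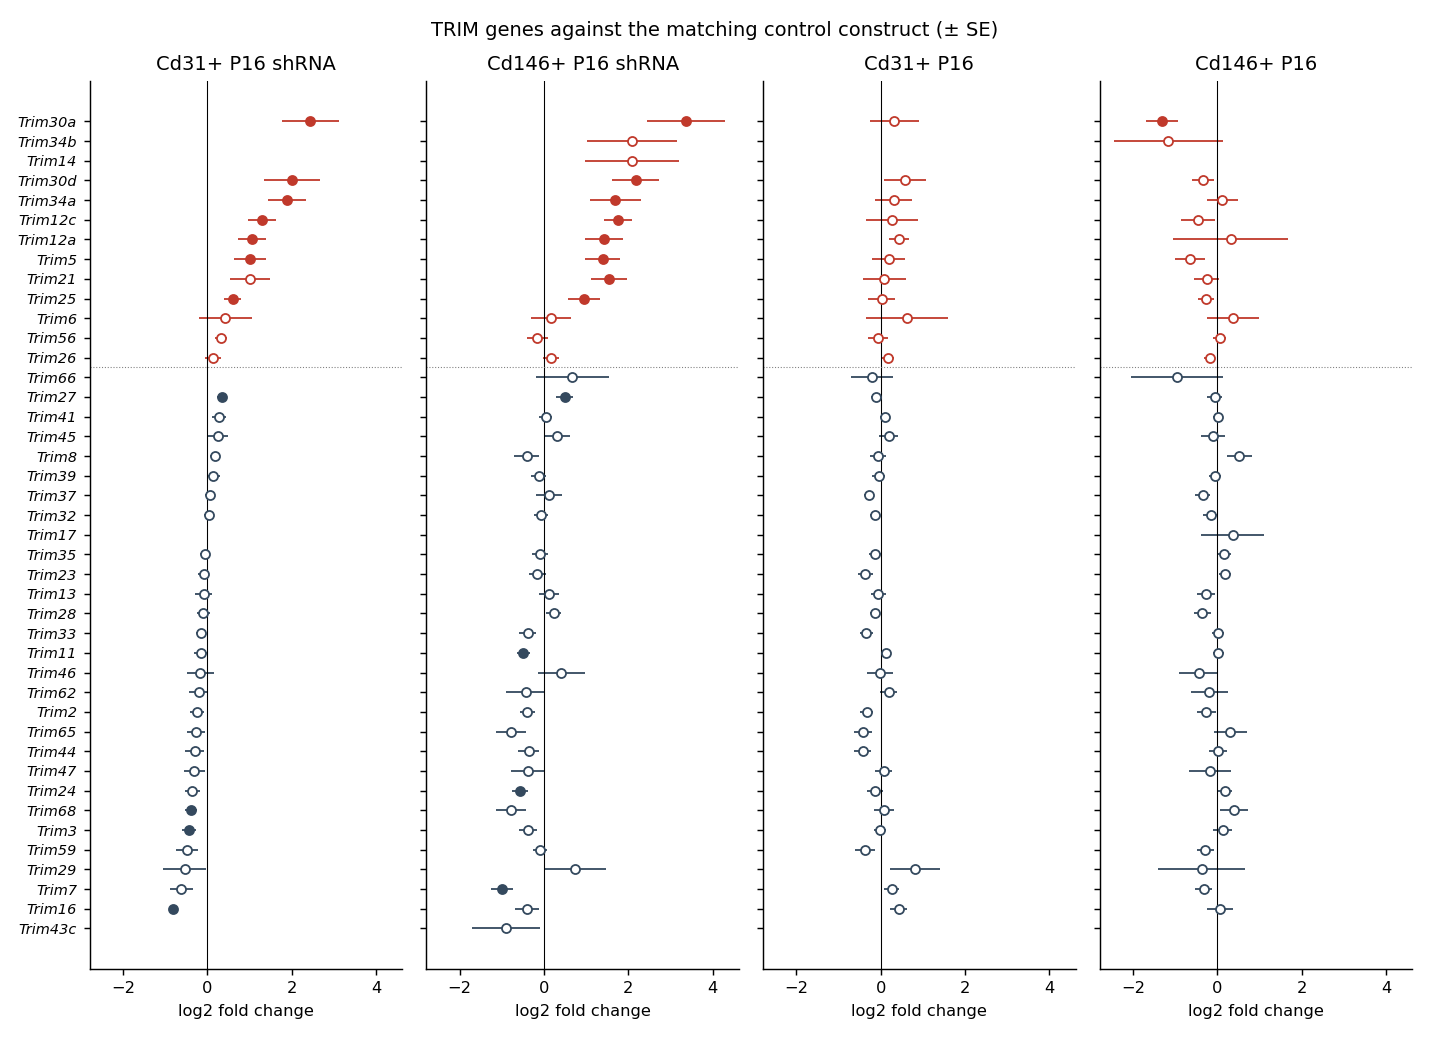
Log2 fold change ± SE of every tested TRIM gene in the 4 construct comparisons, without a replicate block; red marks the interferon-inducible list (above the dotted line), blue the other members, and filled symbols an unadjusted p under 0.05. With P16 shRNA the list had medians of 1.02 in Cd31+ and 1.53 in Cd146+ cells, and with the P16 construct of 0.26 (-0.0059 with the block) and -0.26.

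Because the replicate numbers paired libraries within a population, ratios were also taken within same-numbered pairs (genes with more than 3 counts in both). In the Cd31+ pairs numbered 1, 2 and 3 the interferon-inducible members were higher with P16 shRNA in 10 of 11, 10 of 11 and 12 of 12 cases, with median ratios of 1.95, 1.43 and 2.63. In the Cd146+ pairs numbered 3 and 5 they were higher in 11 of 11 and 13 of 13, with median ratios of 3.87 and 2.20. The other tested members were higher in 9 of 27, 10 of 27, 6 of 28, 15 of 28 and 5 of 29 cases. Their median ratios were 0.867, 0.948, 0.903, 1.02 and 0.925. Several interferon-inducible members are close copies, so that their cases were not independent of each other. The share of all genes that were higher in each pair was not computed. Trim30a had ratios of 5.70, 3.11 and 6.46 in Cd31+ cells and of 25.6 and 3.27 in Cd146+ cells. Trim16 was below 1 in all 5 pairs (0.518 to 0.747), Trim7 likewise (0.420 to 0.656) and Trim11 as well (0.633 to 0.901). This was not particular to them. Trim2, Trim3, Trim33, Trim44, Trim65 and Trim68 were also below 1 in all 5 pairs. The share of all genes with that pattern was not computed.

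**Figure D4:**
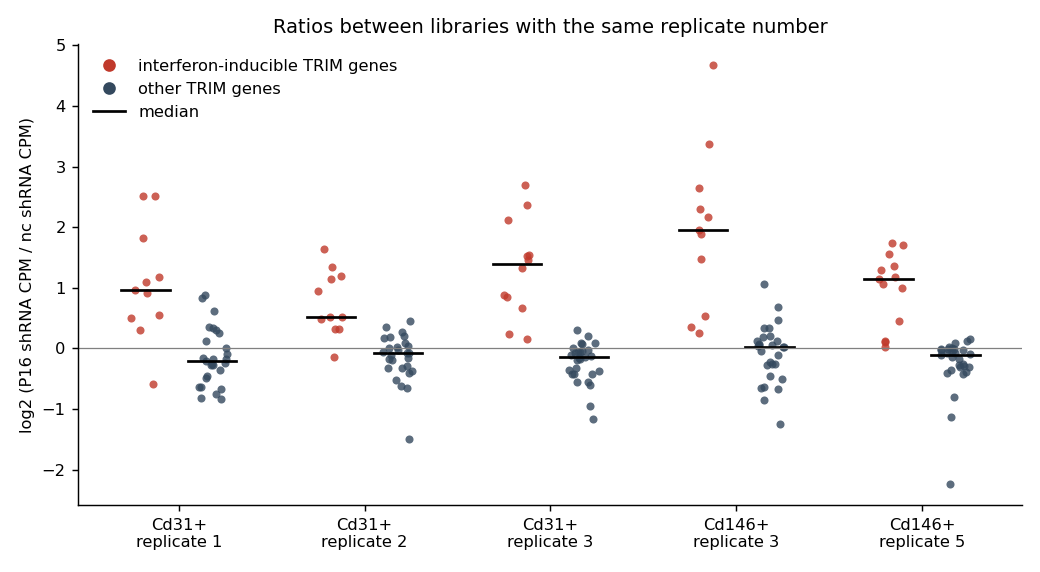
Log2 ratio of P16 shRNA to nc shRNA CPM within libraries of the same replicate number; each point is 1 tested TRIM gene, red for the interferon-inducible list and blue for the other members, and bars are medians. The red medians correspond to ratios of 1.43 to 3.87 and the blue medians to 0.867 to 1.02.

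A fit over all 24 libraries compared the silencing difference between the populations. No TRIM gene of 43 tested had an unadjusted p under 0.05 (all genes, 1.20%), none passed after adjustment, and DESeq2 also called none. The estimates were imprecise for the genes with the largest changes, as for Trim30a (Cd146+ minus Cd31+, 0.94 ± 1.03, unadjusted p = 0.376) and Trim30d (0.18 ± 0.795, unadjusted p = 0.827). Trim11, lower in Cd146+ cells and with a blocked log2 fold change of -0.17 ± 0.0984 in Cd31+ cells, had the smallest p (-0.33 ± 0.174, unadjusted p = 0.0752).

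By role, the 7 tested signalling regulators included 1 higher (Trim27) and 1 lower member (Trim68) in Cd31+ cells and 1 higher (Trim27) in Cd146+ cells, all at an unadjusted p under 0.05. The medians of their log2 fold changes were -0.09 and -0.16, the latter turning to 0.0074 with the block. Of the TIF1 chromatin group, Trim24, Trim28 and Trim33 were tested in Cd31+ cells with P16 shRNA, at -0.35 ± 0.179, -0.09 ± 0.151 and -0.16 ± 0.121, and none passed. Trim66 was tested in Cd146+ cells, at 0.67 ± 0.869, beside 0.23 ± 0.169 for Trim28 and -0.39 ± 0.202 for Trim33. The cell division and p53 list had 6 tested members without the block, and in the blocked fits Trim16 fell in both populations, Trim59 in Cd31+ and Trim11 in Cd146+ cells. Of the NHL class, 3 were tested and Trim3 fell in Cd31+ cells with the block. Only Trim46 of the 7 COS-box members, which bind microtubules, was tested without a block, at -0.17 ± 0.322 and 0.41 ± 0.562.

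Genes that work with the TRIM ligases were taken from lists of their own. Of 17 genes of RNA and DNA sensing, all tested, 8 rose and 1 fell in Cd31+ cells and 7 rose and 1 fell in Cd146+ cells with the block (adjusted p under 0.05), against 7.95% and 8.81%, and 3.53% and 4.80%, of all genes. Without the block none of the 17 rose after adjustment in either population, and 1 fell, Traf6 in Cd31+ cells. Irf9, part of the interferon-activated transcription factor ISGF3, rose by a log2 fold change of 1.80 ± 0.286 in Cd31+ cells (adjusted p = 0.00362) and by 2.17 ± 0.236 in Cd146+ cells (adjusted p = 0.00591). Ddx58, which encodes the TRIM25 target RIG-I, rose by 1.48 ± 0.248 in Cd31+ cells (adjusted p = 0.0038), and Irf7 by 4.82 ± 0.598 in Cd146+ cells (adjusted p = 0.0186). Traf6, the adaptor ligase of Toll-like receptor signalling, fell in both with the block (-0.80 ± 0.117, adjusted p = 0.000888, and -0.80 ± 0.126, adjusted p = 0.0094). The adjusted p-values of these genes without the block were 0.0909 to 0.382, except for Traf6 in Cd31+ cells (0.0303). Among tripartite genes with other names, 4 of 7 were tested and Mid2 fell in Cd31+ cells (-0.65 ± 0.141, adjusted p = 0.009), whereas in Cd146+ cells the blocked adjusted p was 0.0585 (-0.38 ± 0.104). None of the 11 E1 and E2 genes of ubiquitin transfer passed after adjustment in either population with edgeR, with or without the block, and at an unadjusted p under 0.05 there were 0 and 1 without it and 1 and 4 with it. Ube2k had the smallest p of that list in the fit without a block, with log2 fold changes of 0.27 ± 0.117 (adjusted p = 0.259) and 0.40 ± 0.154 (adjusted p = 0.422).

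With the P16 construct few genes were called, among the TRIM genes as over all genes. No gene at all passed after adjustment in the edgeR fits without a block, in either population. In Cd31+ cells 0 of 38 tested had an unadjusted p under 0.05, none passed after adjustment with edgeR or DESeq2, and 3.73% of all genes had an unadjusted p under 0.05. The interferon-inducible list had a median log2 fold change of 0.26 (11 tested; 0.013 over all genes), which did not hold with the block, where it was -0.0059 with 6 members above and 6 below 0. Within the same-numbered pairs 3 of 11 members of the list were higher with P16 in replicate 2 (median ratio 0.861) and 12 of 13 in replicate 5 (1.45). Among the other tested members 10 of 28 and 8 of 29 were higher. Without P16 replicate 5 the median log2 fold change of the list was -0.11, and without empty vector replicate 1 it was 0.011. Trim30a stood at 4.17, 14.6 and 14.4 CPM with the empty vector (replicates 1, 2 and 5) and at 8.19, 10.5 and 22.6 CPM with P16 (replicates 2, 3 and 5), which overlapped (0.32 ± 0.585, adjusted p = 0.970), and whose difference turned to -0.18 ± 0.481 with the block. Trim16, lower with P16 shRNA, stood at 37.9, 47.9 and 64.3 CPM with the empty vector and at 67.7, 64.0 and 70.0 CPM with P16 (0.43 ± 0.205, adjusted p = 0.947; blocked adjusted p = 0.310). With the block 6 of 41 members had an unadjusted p under 0.05 (11.4% of all genes) and none passed after adjustment. There were 4 members whose groups did not overlap, all lower with P16, against 10.7% of all genes in both directions: Trim2, Trim23, Trim33 and Trim37. Trim33, a TIF1 member that regulates Smad signalling, was at 50.4, 53.3 and 50.5 CPM with the empty vector and at 33.0, 42.7 and 45.4 CPM with P16 (-0.34 ± 0.152, adjusted p = 0.947). The other TIF1 members Trim24 (-0.14 ± 0.193), Trim28 (-0.13 ± 0.117) and Trim66 (-0.21 ± 0.498) did not pass.

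In Cd146+ cells 1 of 40 tested members had an unadjusted p under 0.05 (all genes, 3.53%), and none passed after adjustment with edgeR or DESeq2. This was Trim30a, at 11.1, 22.7 and 9.52 CPM with the empty vector (replicates 2, 4 and 5) and 4.85, 6.49 and 6.11 CPM with P16 (replicates 1, 3 and 5). The groups did not overlap, and the log2 fold change was -1.31 ± 0.377 (unadjusted p = 0.0122, adjusted p = 0.986). With the block, which here rests on the empty vector library numbered 5 alone, it was -1.11 ± 1.06 (unadjusted p = 0.355), and without the empty vector library numbered 4 it was -0.83 (unadjusted p = 0.0219). The interferon-inducible list had a median log2 fold change of -0.26 (12 tested; -0.0027 over all genes), and -0.40 with the block. In all, 6 members did not overlap, 5 lower and 1 higher (8.55% of all genes in both directions). Trim24, Trim28, Trim33 and Trim66 had log2 fold changes of 0.17 ± 0.179, -0.35 ± 0.206, 0.02 ± 0.148 and -0.96 ± 1.08.

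Of 43 members tested for a difference between the populations in the response to P16, 1 had an unadjusted p under 0.05 (all genes, 3.82%), and none passed after adjustment with edgeR or DESeq2. This was Trim23, which combines a RING domain with an ARF-type GTPase domain. In Cd31+ cells it stood at 29.6, 31.5 and 31.5 CPM with the empty vector and at 18.2, 26.8 and 26.5 CPM with P16. In Cd146+ cells it stood at 27.6, 23.7 and 24.3 CPM with the empty vector and at 28.6, 28.1 and 28.9 CPM with P16. Thus every P16 library lay below the controls in the first case and above them in the second, with a difference of 0.55 ± 0.219 (unadjusted p = 0.0208, adjusted p = 0.989). Neither comparison passed by itself (adjusted p = 0.947 and adjusted p = 0.986).

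**Figure D5:**
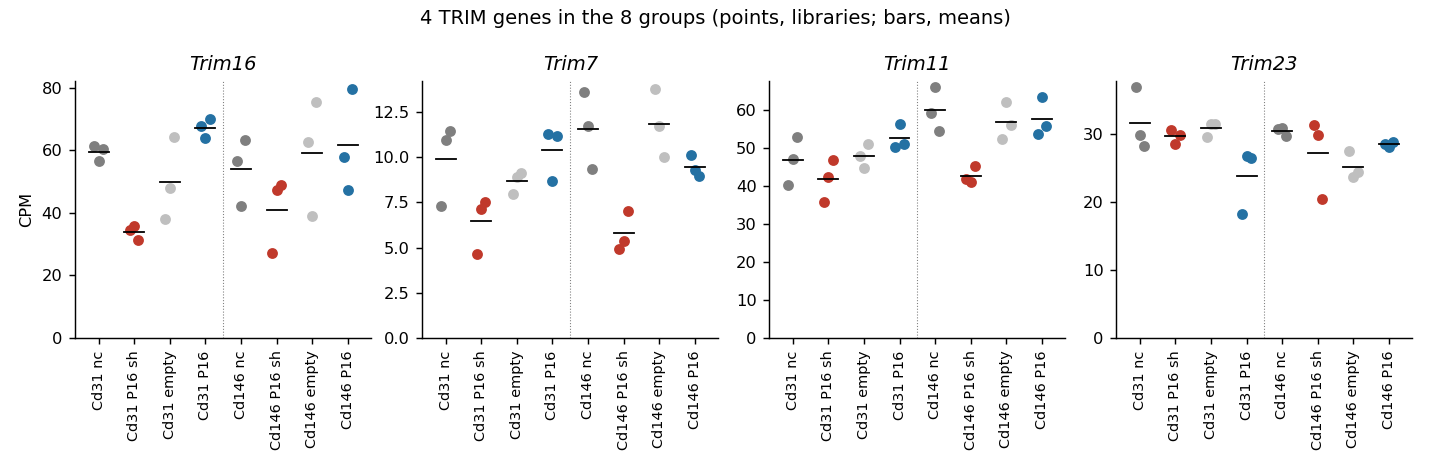
CPM of Trim16, Trim7, Trim11 and Trim23 in the 8 groups; points are libraries and bars group means (n = 3), with Cd31+ cells left and Cd146+ cells right of the dotted line. Trim16 is lowest with P16 shRNA in Cd31+ cells (31.3 to 35.7 CPM), and Trim23 is lower with P16 than with the empty vector in Cd31+ cells and higher in Cd146+ cells.

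With the control constructs, nc shRNA or empty vector, the populations were compared over 12 libraries with the construct as a covariate. Of 41 members 2 were higher and 4 lower in Cd146+ than in Cd31+ cells at an unadjusted p under 0.05 (all genes, 8.34% and 9.12%). No member passed after adjustment with edgeR, whereas DESeq2 called 4 (1 higher, 3 lower) and 4.17% of all genes. Trim59 stood at 77.4 to 137 CPM in the 6 Cd31+ and at 49.1 to 74.6 CPM in the 6 Cd146+ libraries, without overlap (-0.75 ± 0.160, unadjusted p = 0.000568, adjusted p = 0.131). Trim33 was also separated, at 50.4 to 64.6 CPM against 36.1 to 45.1 CPM (-0.41 ± 0.0723, unadjusted p = 0.000122, adjusted p = 0.107). Trim35 (-0.30 ± 0.0931, adjusted p = 0.176) and Trim2 (-0.45 ± 0.142, adjusted p = 0.179) were lower, and Trim11 (0.30 ± 0.0875, adjusted p = 0.152) and Trim7 (0.34 ± 0.149, adjusted p = 0.273) higher in Cd146+ cells, before adjustment. The interferon-inducible list had 12 tested members, none with an unadjusted p under 0.05, and a median log2 fold change of 0.02, equal to that over all genes. Xist reads were present in 1 of the 6 Cd31+ and in 3 of the 6 Cd146+ control libraries. With a term for them 9 of 41 members had an unadjusted p under 0.05 (14.4% of all genes).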

How the data were processed

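RNA was sequenced from 24 cultures of Cd31+ or Cd146+ mouse liver endothelial cells, 3 per group. The authors deposited whole-number read counts per gene, with FPKM values and their own comparison columns (fold changes, p-values and adjusted p-values), neither of which was used here. The submitters' processing notes name fastp and mm9; the aligner, the counter and the use of strand are not given in the sources used here. Gene starts and ends equalled those of GENCODE M21 for 1 of 68 members, so no coordinates of the count table are printed, and promoters come from RefSeq (GRCm38.p6). All columns of per-sample values could be assigned to a sample, with 0 left over.

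CPM are counts scaled by the library total after low-count filtering, multiplied by a TMM factor from all 24 libraries (0.934 to 1.07). Levels, ranges, ratios within pairs and overlaps of groups use these values. Only the CPM of the floor were scaled by the plain library total. Tests used the quasi-likelihood test of edgeR 4.0.16 (R 4.3.3) with TMM normalization, filterByExpr and Benjamini-Hochberg adjustment over all genes tested, first on the 6 libraries of the groups compared. The scripts were tested on simulated data. Differences between the populations in the effect of a construct were fitted over all 24 libraries. The populations with control constructs were compared over the 12 libraries with nc shRNA or empty vector. Deviations from group means correlated between same-numbered libraries (median r = 0.516 over 13 Cd31+ pairs, lowest 0.343, and 0.696 over 10 Cd146+ pairs, lowest 0.373), but not across populations (0.104 over 27 pairs, lowest -0.0475). The numbers were therefore taken to pair libraries within a population, and fits with the number as a block over its 12 libraries are given beside the others (a block over the 2 groups alone was an alternative). The pairing comes from the numbers in the labels and this check.

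The members and lists were chosen with earlier results of these data known. Named were members passing an adjusted p of 0.05, the 10 smallest p-values per direction under 0.05, tested interferon-inducible and TIF1 members, the 5 most abundant, Cdkn2a and up to 3 genes per partner list. Trim37, Trim46, Trim65 and the untested members were named after their values were seen, and so were partner genes given for the other population. Alternatives were size factors of DESeq2, the DESeq2 1.42.0 Wald test, 2 other low-count filters, 1 fit per population, the block and leaving out each library. A term for Xist reads and leaving out libraries from the blocked fits were added after seeing the data. Sequence shared between genes was measured as 50-base words of GENCODE M21 transcripts. Floors cover counting error only, while SEs and SDs hold the spread between cultures.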

Additional observations from a re-analysis of the deposited data

Results flagged for a closer look

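Trim23 was picked out because its response to the P16 construct differed between the populations, by a log2 difference of 0.55 (Cd146+ minus Cd31+, unadjusted p = 0.0208, edgeR quasi-likelihood test over 24 libraries). All 3 P16 libraries lay below the empty vector libraries in Cd31+ cells and all 3 above them in Cd146+ cells. The difference did not pass adjustment over all genes (adjusted p = 0.989), and 3.82% of all genes had an unadjusted p under 0.05 in this comparison. Leaving out 1 library at a time gave differences between 0.39 and 0.64. Without Cd31+ P16 replicate 2 neither Trim23 nor another member had an unadjusted p under 0.05. Over all genes 250 were higher and 230 lower of 17017 in that fit.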

How the results depend on the processing

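Values of members with an unadjusted p under 0.05 kept their direction under all alternatives run: 208 kept their side of that threshold and 12 lost it under other settings, and 180 kept and 48 lost it when 1 library was left out. Of the values printed for other members in the construct comparisons, Trim56 in Cd146+ silencing (-0.15 to 0.16), Trim30a in Cd31+ overexpression (0.32 to -0.18) and Trim33 in Cd146+ overexpression (0.02 to -0.04) turned with the replicate block, and so did the interferon-inducible median in Cd31+ overexpression (0.26 to -0.0059). The fits with the block changed most counts. At an adjusted p under 0.05 the Cd31+ silencing comparison had 1 member, 14 with the replicate block over 12 libraries, 15 with the block over 2 groups, 7 with all genes and 6 with DESeq2. Over the whole transcriptome 55 genes were higher and 131 lower of 14358, and 1227 and 1359 of 15426 with the block over 12 libraries. These numbers were 1281 and 1422 of 14358 with the block over 2 groups, 630 and 664 of 34699 with all genes, and 485 and 611 of 14358 with DESeq2. At an unadjusted p Cd31+ silencing had 11 members, with 19 for all genes and 20 for either block. Over the whole transcriptome 1366 genes were higher and 1477 lower, and 2091 and 1818 with all genes. With the blocks these were 2326 and 2469 over 12 libraries, and 2415 and 2456 over 2 groups. In Cd146+ silencing the adjusted count was 0, with 9 for the block over 12 libraries, 0 for the block over 2 groups, 1 for all genes and 4 for DESeq2. Over the whole transcriptome it was 0 as well, and 0 with the block over 2 groups. There 562 genes were higher and 764 lower of 15915 with the block over 12 libraries. The numbers were 4 and 15 of 31039 with all genes, and 138 and 195 of 15124 with DESeq2. For Cd31+ overexpression the unadjusted count of 0 became 6 with all genes, 4 in 1 fit over 12 libraries, 6 and 3 with the blocks and 1 with the Xist term. Over the whole transcriptome 211 genes were higher and 333 lower of 14565. These became 540 and 584 of 32683 with all genes, and 390 and 564 of 15426 in 1 fit. They were 923 and 843 of 15426 and 544 and 619 of 14565 with the blocks, and 395 and 418 of 14565 with the Xist term. For Cd146+ overexpression 1 became 2 with all genes and 0 in 1 fit or with the block, and a block over its 2 groups could not be fitted, since they share only the number 5. Whole-transcriptome numbers there were 230 higher and 295 lower of 14860, and 349 and 505 of 32458 with all genes. They were 327 and 398 of 15915 in 1 fit, and 168 and 116 of 15915 with the block. Between populations 6 became 11 with the block, and the adjusted count of 0 became 4 with DESeq2 and 2 with the block. The block of this comparison was the replicate number shared by both populations, unlike the blocks within a population used elsewhere. Same-numbered libraries did not correlate across populations (median r = 0.104 over 27 pairs), so that this check gave no ground for such a block. Of 15676 genes, 1307 were higher and 1430 lower at an unadjusted p, and 1411 and 1474 with the block. After adjustment none passed without the block, 306 and 347 with DESeq2, and 35 and 22 with the block. The differences of effects had 1 with all genes and 1 with a block within each population for silencing (0 before), and 2 with all genes for overexpression (1 before). Over the whole transcriptome silencing had 99 positive and 100 negative of 16524. These were 291 and 359 of 41769 with all genes, and 355 and 397 of 16524 with the block. Overexpression had 337 and 294 of 16524, and 414 and 762 of 41769 with all genes. The cause of these shifts was not tested. Leaving out 1 library gave unadjusted counts of 5 to 11 and 6 to 14 for silencing in Cd31+ and Cd146+ cells, 0 to 5 and 1 to 4 for overexpression, 5 to 9 between populations and 0 to 2 for both differences, with adjusted counts of 0. In the blocked silencing fits it gave 2 to 11 and 0 to 18. Calls over the whole transcriptome moved with the library left out as well. In unblocked Cd31+ silencing they were 1351 higher and 1542 lower of 14891 without nc shRNA replicate 1. Without P16 shRNA replicate 1 they were 881 and 1109 of 14789. Medians of the interferon-inducible list ranged from 0.70 to 1.21 and 0.85 to 1.78 for silencing, and from -0.11 to 0.49 and -0.32 to -0.20 for overexpression. With 3 libraries per group, differences of genes near the floor were not resolved.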

Other observations

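Trim34b had 12 to 64 counts (median 1.66 CPM) in the 8 libraries with Xist reads and 0 to 11 counts (median 0.166 CPM) in the other 16. Trim12a had 0 counts in the Cd146+ empty vector library numbered 4, against 69 to 549 counts elsewhere, and the same library held 42 counts of Trim9, against 0 to 7 elsewhere.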
